A study of Mus musculus with 2 samples.

Results

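The genes described here are 40 that cells switch on to copy their DNA and to divide, looked up by symbol in the gene list of a mouse liver single-cell RNA dataset, where all 40 of 40 were found among 32285 genes. By role, 14 serve DNA replication and nucleotide supply, 7 are mitotic cyclins and kinases, and 8 act in the spindle, its checkpoint and anaphase. Another 8 were grouped under chromosomes and centromeres, among them Cdca3, which acts in mitotic entry. The last 3 (Stmn1, Hmgb2 and Tubb4b) are also abundant in resting cells. The cells came from male C57BL/6J recipients that were irradiated, given marrow of Trem2-/- donors or of their Trem2+/+ littermates, left for 6 weeks, and fed a methionine- and choline-deficient (MCD) diet, a diet used to model steatohepatitis, for 4 weeks. Each group is a single library made from the livers of 4 mice pooled, sorted as live (7AAD-negative) CD45+ cells, so neither group has a replicate and no difference between them can be set against the spread between mice. Both groups share the irradiation, the transplant and the diet, and no unirradiated or chow-fed group was analysed here. The genotype is that of the marrow: endothelial cells, and any leukocyte of the host that outlived irradiation, keep the host's own alleles. The comparisons ask which liver leukocyte lineages carry these genes, in what share of their cells, and how the marrow genotypes differ.

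The Trem2-/- library held 6362 barcodes and 25288032 UMIs (unique molecular identifiers, each standing for 1 captured RNA molecule), and the Trem2+/+ library 7012 barcodes and 27238586 UMIs. After filtering, 5973 and 6596 cells were kept, with medians of 2932 and 2492 UMIs per cell. The targeted gene fitted its labels: Trem2 stood at 6.19 CPM (a counts-per-million scale over the UMIs of the cells summed, not divided by gene length) in the Trem2-/- library and 204 in the Trem2+/+ library, and in macrophage-like cells at 45.0 and 752. Cells were grouped with the cell cycle genes left out, so that a dividing cell could fall with its lineage, into 26 clusters and 14 classes named from markers, 9 of which had at least 100 cells in each library. The gate did not hold leukocytes only: 968 and 679 endothelial-like cells were kept. Doublet calling had not worked, so doublets are among the kept cells. The libraries shared 56 barcode sequences, and 5 cells with such a barcode carried several of the genes. Intervals below are 95% intervals that cover counting error only, and UMIs of the same cell are not independent, so true uncertainty is wider.

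A cell that commits to division loads the MCM helicase onto replication origins, raises its supply of deoxynucleotides and clamps polymerases to DNA with Pcna during S phase. It then builds up cyclins A and B, which activate Cdk1, and the kinases Aurka, Aurkb and Plk1, which together assemble the spindle. Cdc20 and Ube2c then lead those cyclins to destruction, and the chromosomes are pulled apart. The replication genes are controlled largely by E2F factors bound to pRB-family proteins, and many of the mitotic genes by the DREAM and B-MYB complexes through an element called the cell cycle genes homology region (CHR), often beside CCAAT boxes bound by NF-Y. In the liver, tissue macrophages and dendritic cells can renew in place, T cells divide after seeing antigen, and neutrophils are released after their last division.

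Promoter windows from RefSeq (GRCm38.p6, 250 bases before to 50 after each start) were found for 33 of the 40 genes, in 34 windows. The 4 printed here were picked by the role of the gene: Mcm5 and Pcna are replication genes, and Ccnb2 and Plk1 are mitotic genes. Mcm5 lies at chr8:75109259-75109558 (plus strand), Pcna at chr2:132253131-132253430 (minus strand), Ccnb2 at chr9:70421505-70421804 (minus strand) and Plk1 at chr7:122159185-122159484 (plus strand). Each is written 5′ to 3′ in the direction of transcription, with capitals marking a match on either strand. The E2F words searched were TTCCCGC and its variant TTCGCGC, together with TTGCCGC and its variant TTGGCGC, the CHR words were TTTGAA and the related TTCGAA, and the last was CCAAT.
Mcm5: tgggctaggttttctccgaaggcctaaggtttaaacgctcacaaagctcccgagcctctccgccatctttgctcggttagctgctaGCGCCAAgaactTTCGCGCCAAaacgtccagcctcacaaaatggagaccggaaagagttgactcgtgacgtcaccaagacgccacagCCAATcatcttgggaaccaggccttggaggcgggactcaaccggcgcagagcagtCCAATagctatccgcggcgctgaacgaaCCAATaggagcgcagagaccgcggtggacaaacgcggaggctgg
Pcna: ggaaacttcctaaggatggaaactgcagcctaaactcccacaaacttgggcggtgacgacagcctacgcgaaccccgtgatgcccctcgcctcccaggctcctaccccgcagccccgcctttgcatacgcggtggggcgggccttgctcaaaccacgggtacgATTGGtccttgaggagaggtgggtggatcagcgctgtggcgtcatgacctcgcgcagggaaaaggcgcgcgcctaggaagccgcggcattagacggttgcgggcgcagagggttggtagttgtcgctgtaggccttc
Ccnb2: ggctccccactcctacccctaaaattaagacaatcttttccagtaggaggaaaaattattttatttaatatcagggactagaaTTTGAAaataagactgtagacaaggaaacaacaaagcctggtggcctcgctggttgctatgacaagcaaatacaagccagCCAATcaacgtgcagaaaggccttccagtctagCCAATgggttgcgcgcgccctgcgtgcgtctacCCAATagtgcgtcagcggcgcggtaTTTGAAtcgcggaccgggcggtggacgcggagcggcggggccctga
Plk1: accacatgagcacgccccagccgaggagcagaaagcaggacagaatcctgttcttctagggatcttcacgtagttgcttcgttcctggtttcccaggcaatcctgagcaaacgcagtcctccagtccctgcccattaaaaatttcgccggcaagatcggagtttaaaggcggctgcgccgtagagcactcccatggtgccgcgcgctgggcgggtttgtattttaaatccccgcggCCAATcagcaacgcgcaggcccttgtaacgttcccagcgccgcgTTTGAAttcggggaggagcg

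The Mcm5 window held 3 E2F words, of which a pair overlap, and 3 CCAAT words. The Ccnb2 window held 2 CHR words and 3 CCAAT words, and the Plk1 window held 1 of each. The Pcna window held 1 CCAAT word, on the reverse strand, and neither an E2F nor a CHR word, which says only that these letters are not in that window. Over the members, an E2F word stood in 8 of 12 windows of replication genes (66.7%) and in 3 of 20 windows (15%) of the 3 mitotic roles, against 9.57% of all 32851 windows. A CHR word stood in 2 of 12 replication windows (16.7%) and 16 of 20 mitotic windows (80%), against 19.2% of all windows. CCAAT stood in 30 of the members' 34 windows (88.2%), against 37.4% of all. A match is a run of letters and not a measured binding site, and the genes were not chosen at random. Stmn1, Ccna2, Ccne2, Mcm4, Aurkb, Tpx2 and Gins2 were not in the promoter table.

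Conventional type 1 dendritic cells, which take up dead cells and present their antigens to CD8 T cells, held the highest share of cycling cells of the 9 classes. A cell was counted as cycling when it had at least 1 UMI of at least 5 of the 40 genes, which is a count of RNA and not a measure of division. Of cDC1-like cells, 97 of 217 met this in the Trem2-/- library (44.7%, exact binomial interval 38.0 to 51.6) and 100 of 249 in the Trem2+/+ library (40.2%). The share was 32 of 133 (24.1%) and 40 of 209 (19.1%) in cDC2-like cells, which present antigen to CD4 T cells, and 64 of 409 (15.6%) and 97 of 905 (10.7%) in Kupffer-like cells, the resident macrophages of the sinusoids. In T and innate lymphoid-like cells it was 179 of 1412 (12.7%) and 139 of 968 (14.4%), and in NK/ILC1-like cells 32 of 217 (14.7%) and 26 of 283 (9.19%). The order of the Kupffer-like, T and innate lymphoid-like and NK/ILC1-like classes differed between the libraries.

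The remaining classes were lower. The share was 64 of 968 (6.61%) and 41 of 679 (6.04%) in endothelial-like cells, 32 of 463 (6.91%) and 33 of 659 (5.01%) in Ly6C-high monocyte-like cells, and 9 of 719 (1.25%) and 6 of 780 (0.769%) in B-cell-like cells. Neutrophil-like cells, which no longer divide, serve as the reference for background: 1 of 529 (0.189%) and 1 of 706 (0.142%), at medians of 2133 and 1827 UMIs. Smaller classes had wide intervals. Macrophage-like cells met the limit in 11 of 87 and 76 of 451 cells, and cholangiocyte-like cells, a bile duct type outside the CD45+ gate, in 5 of 12 and 9 of 19.

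**Figure D1:**
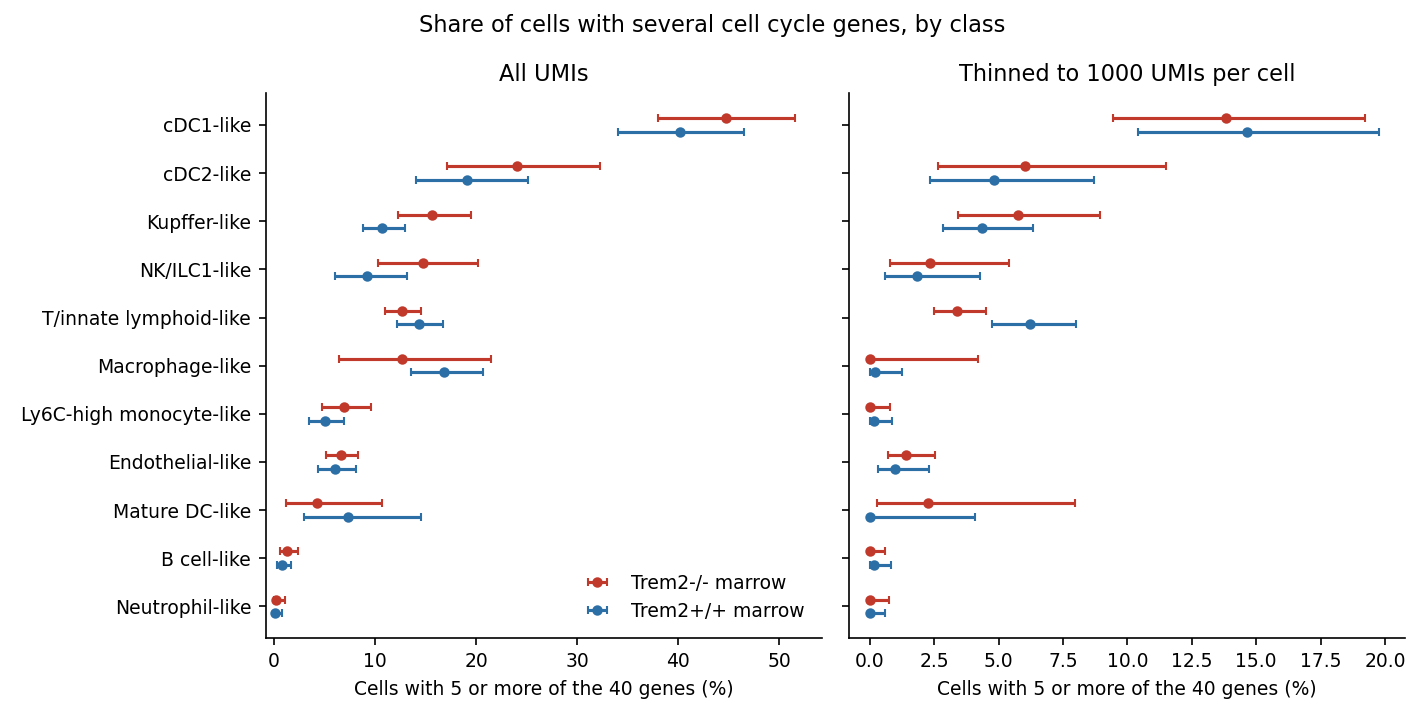
Percent of cells with at least 5 of the 40 genes (x axis) in each class and library, with exact binomial 95% intervals, from all UMIs (left) and after thinning each cell to 1000 UMIs (right). Among the classes drawn, which leave out cholangiocyte-like and other small ones, the cDC1-like cells stand highest in both libraries (44.7% and 40.2%, thinned 13.8% and 14.6%), and neutrophil-like and B-cell-like cells are near 0.

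Depth differed between classes and moved with these shares. Cells with at least 5 of the genes had medians of 8306 and 9075 UMIs, and cells with 0 or 1 of them 1941 and 1690. Their share of barcodes in the top 5% of doublet scores was also higher, 10.0% and 8.51% against 3.89% and 5.78%. It was 31.25% and 10% against 8.82% and 8.45% in cDC2-like cells, and 3.09% and 5% against 5% and 1.45% in cDC1-like cells. The 8 T cell markers summed to 46.7 and 26.6 against 4.10 and 2.46 CPM in cDC2-like cells. In cDC1-like cells they summed to 61.3 and 31.3 against 4.00 and 15.2. The part of doublets in the result was not tested. When each cell was thinned to 1000 UMIs, leaving out 847 and 1132 shallower cells, the cDC1-like share was 13.8% and 14.6%, still the highest. The thinned share was 6.02% and 4.83% in cDC2-like cells, 5.75% and 4.34% in Kupffer-like cells, 3.40% and 6.22% in T and innate lymphoid-like cells, and 2.36% and 1.85% in NK/ILC1-like cells. It was 1.42% and 0.990% in endothelial-like cells. Macrophage-like and Ly6C-high monocyte-like cells, which had stood above background before thinning, then had 0 of 86 and 1 of 445 cells and 0 of 460 and 1 of 632 cells, next to 0 of 501 and 0 of 631 neutrophil-like cells. At this depth the limit of 5 genes did not separate these classes from background, but at their low summed levels few cells could reach it. Thinned, at least 3 genes were found in 0 of 86 and 6 of 445 macrophage-like, 3 of 460 and 4 of 632 monocyte-like, and 6 of 501 and 2 of 631 neutrophil-like cells. Unthinned, at least 3 of the 23 genes of the mitotic roles were found in 2 of 87 and 16 of 451, 7 of 463 and 6 of 659, and 0 of 529 and 0 of 706. Depth differed between these classes, and its part was not tested.

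The count of genes per cell is a continuous scale, and the limit of 5 does not mark a type: 401 and 350 cells had exactly 4 of the genes, and 199 and 173 had exactly 5. Far from the limit, 103 cells (1.72%) of the Trem2-/- library and 109 (1.65%) of the Trem2+/+ library had at least 20 of the 40 genes, and the highest cell of each had 39 and 40. Of these, 30 and 31 were cDC1-like and 36 and 34 were T and innate lymphoid-like, then 9 and 16 Kupffer-like, 8 and 11 cDC2-like, 9 and 4 endothelial-like, and 3 and 5 NK/ILC1-like. No neutrophil-like and no macrophage-like cell reached 20. Ly6C-high monocyte-like cells had 0 and 1, and B-cell-like cells 0 and 1. By number rather than share, T and innate lymphoid-like cells were the largest source of cells with at least 5 genes, 32.0% and 22.7% of them, and cDC1-like cells gave 17.3% and 16.4% although they were 3.63% and 3.78% of kept cells.

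**Figure D2:**
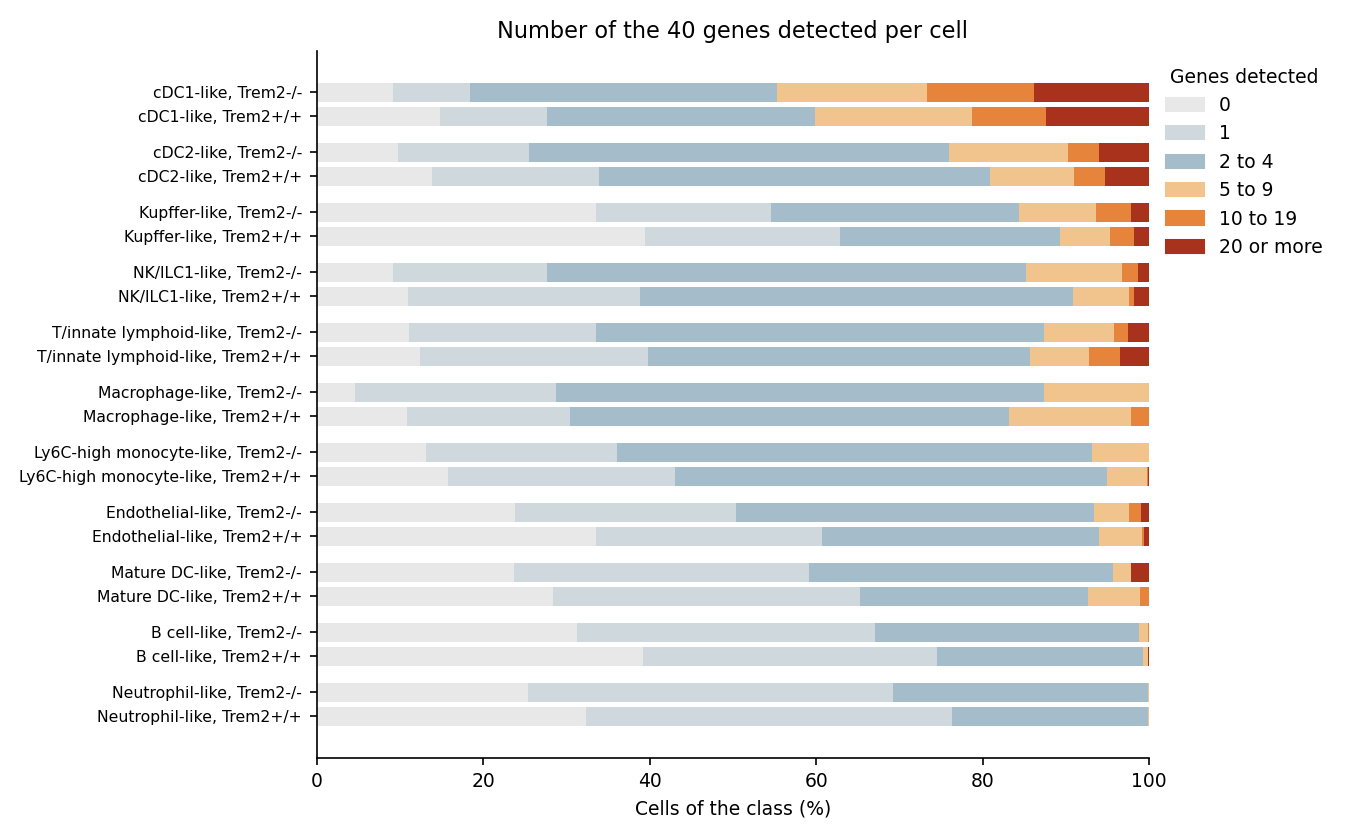
Percent of the cells of each class and library (x axis, stacked bars) by the number of the 40 genes detected in the cell. Cells with 20 or more make up 13.8% and 12.4% of cDC1-like cells and are absent from neutrophil-like and macrophage-like cells.

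Among T and innate lymphoid-like cells, the shares with at least 5 genes were spread over the subclasses that receptor and lineage genes allowed. CD8 T cells had 99 of 693 (14.3%) and 82 of 522 (15.7%). CD4 T cells had 35 of 322 (10.9%) and 18 of 117 (15.4%), and CD4 T cells with a UMI of Foxp3, the regulatory T cell factor, 11 of 37 (29.7%, interval 15.9 to 47.0) and 3 of 10. Gamma-delta T cells had 4 of 118 (3.39%) and 6 of 69 (8.70%). The intervals of CD8 and CD4 cells overlapped in both libraries.

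Lineage markers were compared between cells with at least 5 genes and cells with 0 or 1. The classes were named from these markers, so a cell that lost them could fall elsewhere, and retention was not tested. In cDC1-like cells the 7 cDC1 markers summed to 4275 and 3914 CPM in cells with at least 5 genes. In cells with 0 or 1 they summed to 4645 and 4783. Of these, Clec9a was lower, at 393 against 612 and 333 against 635, and Naaa was higher, at 1046 against 940 and 823 against 757. In T and innate lymphoid-like cells the 8 T cell markers summed to 4315 and 3318 against 4639 and 3821. The gap was wider in Kupffer-like cells. Their 7 markers summed to 4497 and 3764 in cells with at least 5 genes. In cells with 0 or 1 they summed to 10108.5 and 5186. Of these markers Marco, a scavenger receptor, stood at 12.4 against 436 CPM in the Trem2-/- library, with 8 UMIs in the former, and at 146 against 220 in the Trem2+/+ library. When cell cycle genes were instead kept in the clustering, 2 clusters gathered cycling cells across lineages, with 267 cells. They held only 22.3% of the 1171 cells with at least 5 genes. In the larger, 56 of 140 cells were cDC1-like and 33 Kupffer-like. In the smaller, 111 of 127 were T and innate lymphoid-like.

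By level, all 40 genes summed to 2954 and 3555 CPM in cDC1-like cells and to 2395 and 2961 in T and innate lymphoid-like cells (Trem2-/- first, as throughout). They summed to 1882 and 1983 in cDC2-like, 1725 and 1607 in NK/ILC1-like, 1133 and 1240 in Kupffer-like, 1095 and 904 in endothelial-like, 932 and 882 in neutrophil-like, 672 and 812 in B-cell-like, and 447 and 516 in Ly6C-high monocyte-like cells. The neutrophil-like sum was mostly Hmgb2, a chromatin protein, at 624 and 581 CPM. Among the 9 larger classes (100 cells or more per library), cDC1-like cells had the highest level of 29 of the 40 genes in the Trem2-/- library and 30 in the Trem2+/+ library, 27 of them in both. Among these 9 classes the exceptions in both libraries were Mcm4, Cenpa and Hmgb2, highest in T and innate lymphoid-like cells; Pcna and Tk1, highest in Kupffer-like cells; Mcm2, a helicase subunit, highest in NK/ILC1-like cells; and Tubb4b, a tubulin, highest in endothelial-like cells at 245 and 215 CPM. Kif23, a kinesin of cell separation, stood at 71.8 and 71.4 CPM in neutrophil-like cells, the highest class in the Trem2-/- library, where Mki67 was at 18.4 and 25.6.

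**Figure D3:**
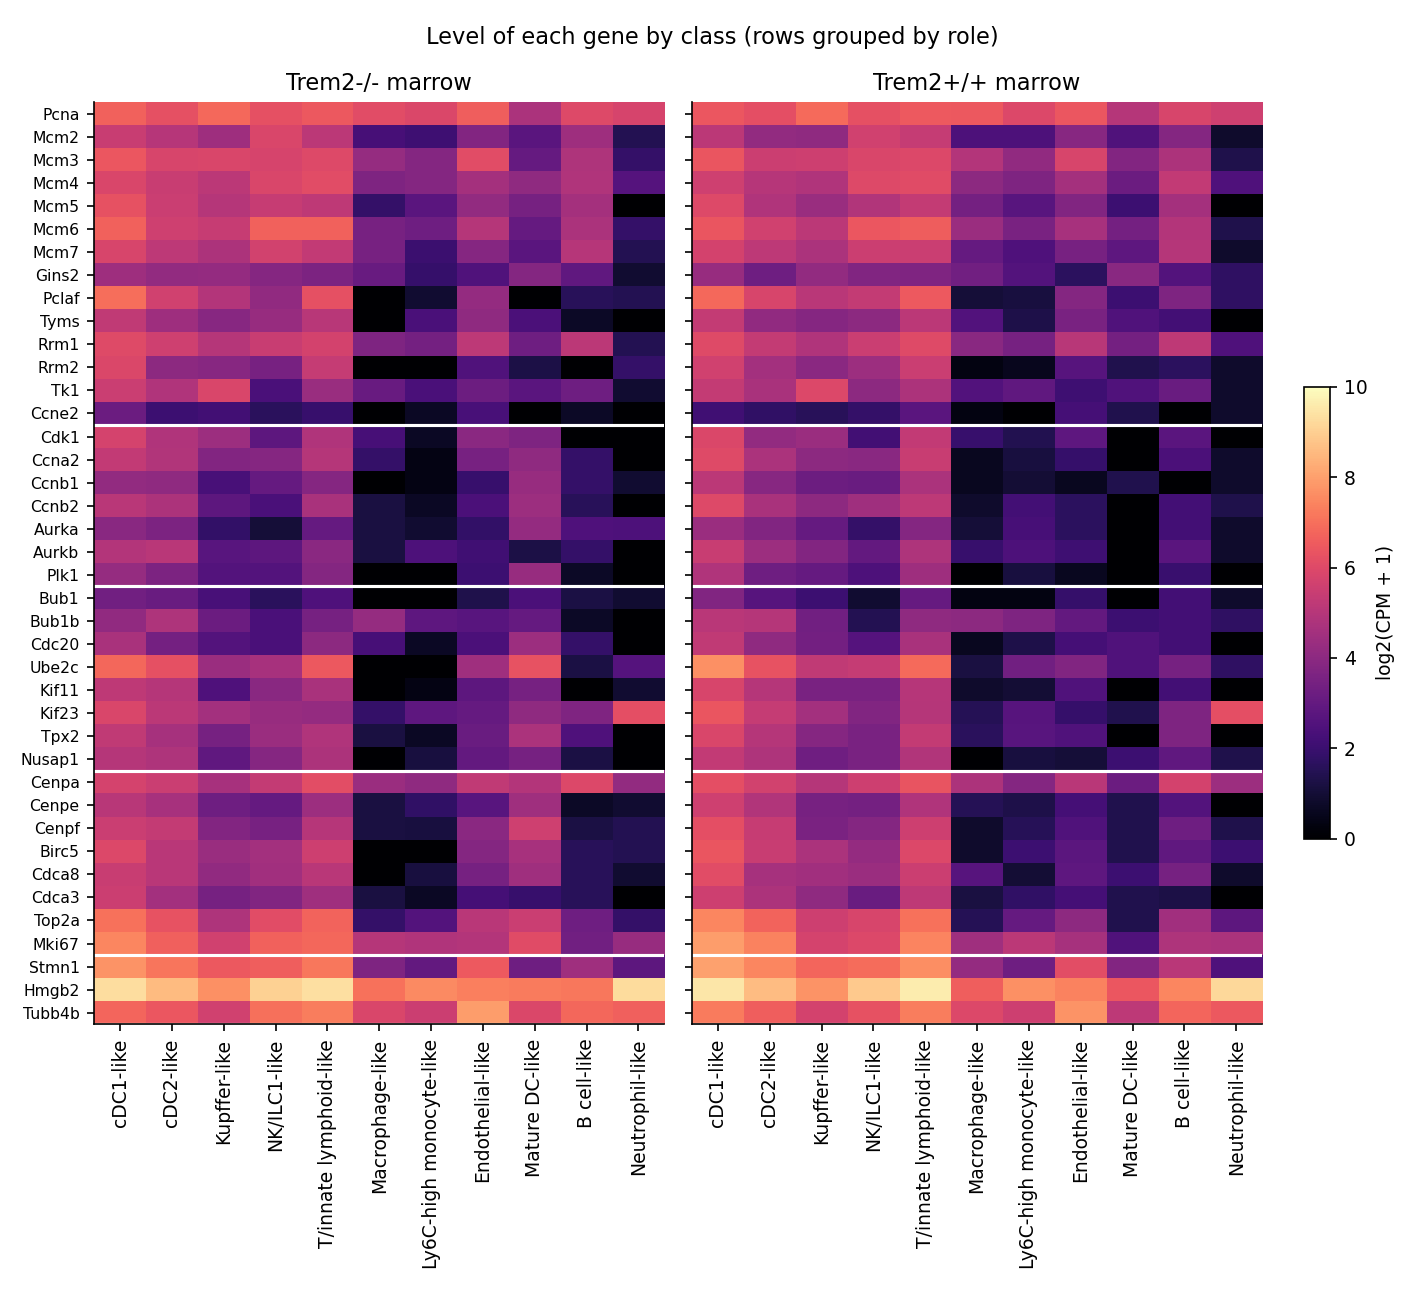
Level of each of the 40 genes (rows, grouped by role) in each class (columns) for both libraries, coloured by log2(CPM + 1). The mitotic rows are bright in cDC1-like and T and innate lymphoid-like cells and dark in macrophage-like, Ly6C-high monocyte-like and neutrophil-like cells, with Kif23 in neutrophil-like cells (71.8 and 71.4 CPM) the exception.

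How far a gene marks cycling cells differed by role. The measure was the percent of a gene's UMIs, over both libraries, found in cells that also had at least 5 of the other 39 genes. It was highest for mitotic cyclins and kinases, with a median of 94.6%, and for the spindle and checkpoint genes, 93.6%, then the chromosome and centromere genes, 91.1%. It was lower for replication genes, 65.3%, and for the 3 genes of resting cells, 55.7%. Birc5, the survivin subunit of the chromosomal passenger complex, was at 97.6%, Ccna2, cyclin A2, at 96.8%, the mitotic kinase Plk1 at 96.6%, and Pclaf, a Pcna-binding factor, at 96.3%. Mki67, which coats mitotic chromosomes and is the usual proliferation marker, was at 82.4%.

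Pcna, the polymerase clamp, also used in DNA repair, was at 36.5%, below Tubb4b at 39.2% and Mcm4 at 52.0%. It was detected in 21.8% and 21.1% of all cells, against 7.00% and 7.26% for Mki67. Hmgb2 was detected in 43.7% and 41.8%. Cenpa, the centromeric histone, was at 54.0%, below the other chromosome genes, and Kif23 at 64.3% and Bub1b at 71.5% were below the other spindle genes. A gene's detection follows its level and the cell's depth as well as the cycle, and deeper cells show more of all genes.

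**Figure D4:**
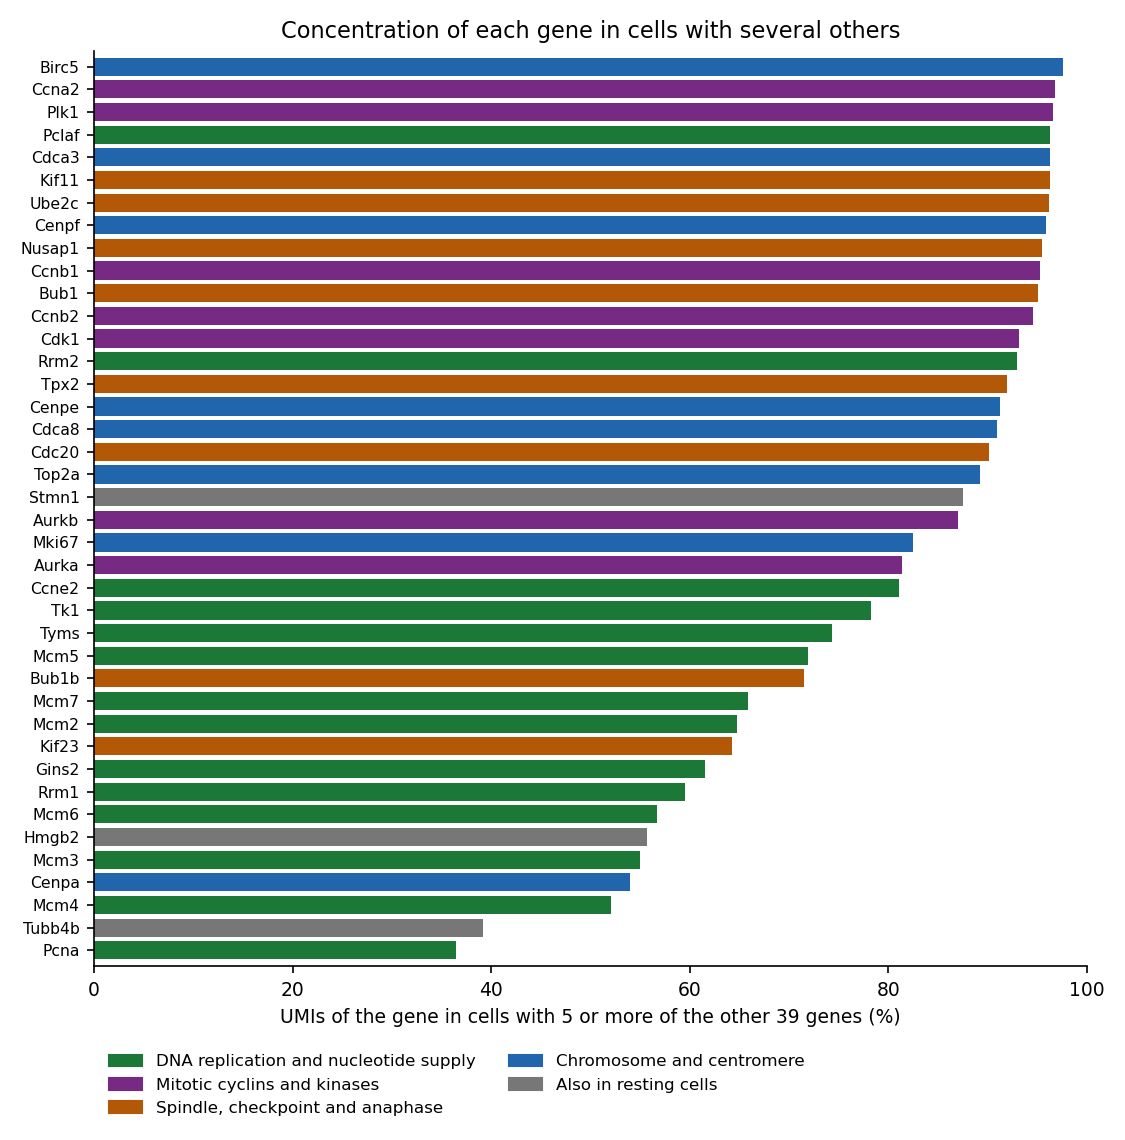
Percent of each gene's UMIs (x axis) found in cells with at least 5 of the other 39 genes, over both libraries, coloured by role. Birc5 is highest at 97.6% and Pcna lowest at 36.5%.

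Other regulators of the cycle were compared between cells with at least 5 of the genes and cells with 0 or 1, within a class, counting a gene as higher or lower when both libraries differed by at least 1.5-fold. In T and innate lymphoid-like cells, 12% of all non-member genes were higher and 5.18% lower by this rule. Of 4 measured G1 cyclins and kinases, Cdk4, the kinase partner of D cyclins, was higher, at 157 against 84.2 CPM and 211 against 80.8. Of 8 measured inhibitors, 4 were higher and 1 was lower. Cdkn2a, which encodes p16 and ARF, was higher, at 43.2 against 8.42 and 47.6 against 12.7, as were Cdkn1a, Cdkn2c and Rbl1. Cdkn1b, the p27 inhibitor of quiescent cells, was lower, at 123 against 191 and 103 against 200. Of 5 antiproliferative genes, Btg1, Btg2, Tob1 and Klf2 were lower. Klf2, a factor of resting T cells, stood at 271 against 554 and 177 against 557.

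In cDC1-like cells, 7.85% of non-members were higher and 5.65% lower. Ccnd3, cyclin D3, and Cdk4 were higher of 5 measured G1 genes, Cdkn1a, Cdkn2d and Rbl1 of 6 inhibitors, and Tob1 of 4 antiproliferative genes, of which Btg1 and Btg2 were lower. In Kupffer-like cells, 5.16% of non-members were higher and 1.71% lower, and Cdk4, Rbl1 and the activator E2f1 were higher with none of the lists' genes lower. Cdk4 and Rbl1, a pRB relative, were thus higher in all 3 classes examined. The lower depth of cells with 0 or 1 gene goes with this contrast, and its part was not tested.

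Over all kept cells, 987 of 8529 non-member genes (11.6%) were at least 1.5-fold higher in both libraries in cells with at least 5 of the genes. Of the 266 measured genes of a wider cell cycle list, 240 were. The most enriched was Spc24, a kinetochore protein, at 55.0 against 0.270 CPM and 59.1 against 0.465. Replication-dependent histones followed, with Hist1h2ab at 122 against 1.89 and 99.4 against 1.86, and Hist1h1b, a linker histone, at 247 against 6.89 and 226 against 5.12. Histone copies are near identical, so reads may be split between them. Others among the 12 highest were Hist1h2ap, Hist1h2ae, Hist1h2ak, Esco2, Hmmr, Aspm, Ncapg and Knl1. The only one not on the wider list was Gm20628, an antisense transcript at chr3:96267075-96270289 (minus strand, mm10), at 51.8 against 1.76 and 49.4 against 1.51. It overlaps the histone genes Hist2h3b and Hist2h2bb on the other strand, and no source used here says whether strand was used in counting, so reads of the pair may not be told apart. The next off the list was Prr11, at 13.4 against 0.270 and 14.4 against 0.233 CPM. Ticrr, a replication initiation factor, was at 13.4 against 0.675 and 9.77 against 0.233. Tspan8, Krt18, Krt8, Sox9, Fxyd3 and Cldn7, genes of bile duct epithelium, were also among these 12, with Igha, Kntc1 and Lurap1l; the class mix of the cells compared differed, and cholangiocyte-like cells had a high share, given above.

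Between marrow genotypes, the share of cycling cells over all kept cells was close: 560 of 5973 (9.38%, interval 8.65 to 10.1) with Trem2-/- marrow and 611 of 6596 (9.26%, 8.57 to 9.99) with Trem2+/+ marrow, a log2 ratio of 0.02 (interval -0.14 to 0.17). The mix of classes differed: with the Trem2+/+ library's mix, the Trem2-/- shares would give 10.1%, and with the Trem2-/- mix the Trem2+/+ shares would give 9.02%. After thinning, the shares were 2.50% and 2.80%, so the order of the libraries flipped (log2 -0.17).

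Of the 40 genes, 19 had a mean level of at least 20 CPM over all kept cells, and 0 of these were 1.5-fold higher and 0 lower in the Trem2-/- library, where 4.64% of all measured genes were higher and 1.85% lower. Their median log2 ratio was 0.11, and 0.06 over all measured genes. By role, 13 of 14 replication genes were above 0, 10 of them with an interval above 0. Of the 7 mitotic cyclins and kinases, 1 was above 0 and 3 had an interval below 0. Over all 40 genes, 14 intervals lay above 0 and 6 below. These intervals cover counting error only, and the same count over all measured genes is not given here. Mcm5 stood at 28.9 and 21.4 CPM (log2 0.43), Mcm6 at 54.7 and 42.0 (0.38), and Rrm2, a ribonucleotide reductase subunit, at 19.5 and 15.2 (0.35). Summed, the replication genes were at 450 and 388 CPM (log2 0.21). As a mean over cells, which weights shallow cells equally, the difference was 0.09. The mitotic cyclins and kinases were at 80.1 and 86.3 and the spindle genes at 134 and 145. Mki67 was at 77.0 and 82.2. The class mix differed here too: T and innate lymphoid-like cells were 23.6% and 14.7% of kept cells. Within classes the replication sum was below 0 in T and innate lymphoid-like (-0.11), Ly6C-high monocyte-like (-0.12), B-cell-like (-0.06) and NK/ILC1-like cells (-0.01). It was above 0 in endothelial-like (0.25), cDC2-like (0.19), cDC1-like (0.18), neutrophil-like (0.16) and Kupffer-like cells (0.11). The part of the class mix was not tested.

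T and innate lymphoid-like cells of the Trem2-/- library had a lower share of cells with mitotic genes, a measure chosen after the data were seen. Cells with at least 3 of the 23 genes of the mitotic roles were 61 of 1412 (4.32%, interval 3.32 to 5.52) with Trem2-/- marrow and 88 of 968 (9.09%, 7.35 to 11.1) with Trem2+/+ marrow, a log2 ratio of -1.07 (-1.53 to -0.62). The cycling cells split otherwise too: with Trem2-/- marrow, 90 of the 179 cells with at least 5 genes had at least 3 replication genes without 3 mitotic ones and 60 had at least 3 mitotic genes, and with Trem2+/+ marrow 35 and 85 of 139. The share with at least 5 of all 40 genes differed by a log2 ratio of -0.18, and its direction was not stable: it was -0.87 (-1.42 to -0.32) after thinning, 0.10 at 3 genes, 0.02 with stricter cell filters, -0.02 without cluster 20, and 0.05 (13.2% and 12.8%) in cells of at least 1000 UMIs unthinned.

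The levels went the same way. In T and innate lymphoid-like cells replication genes summed to 661 and 714 CPM (log2 -0.11), mitotic cyclins and kinases to 132 and 202 (-0.61), spindle genes to 213 and 297 (-0.48) and chromosome genes to 441 and 599 (-0.44). All 17 mitotic genes at 20 CPM or more were below 0, with a median of -0.48, and of -1.30 as a mean over cells. Of the 32 measured genes of all roles, 0 were 1.5-fold higher (3.13% of all measured genes were) and 4 lower (0.834% were), with a median of -0.33 against 0.07 over all genes. The 4 were Mki67, at 113 and 171 CPM (log2 -0.60, interval -0.76 to -0.44), Aurkb, the chromosomal passenger kinase, at 14.5 and 27.2, Kif23 at 17.3 and 30.8, and Cdca3, a trigger of mitotic entry, at 21.4 and 36.3. Ccnb1, cyclin B1, below the level limit, was at 13.3 and 25.6, while Mcm6 was at 102 and 95.6 and Pcna at 86.4 and 90.4.

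Several measures moved with this difference. Of the T and innate lymphoid-like clusters, cluster 20, led by Dapl1, Nsg2, Lef1 and Tcf7, held 1 of 256 and 33 of 364 cells with at least 3 mitotic genes; without it the shares were 60 of 1156 (5.19%) and 55 of 604 (9.11%), a log2 ratio of -0.81. Among T and innate lymphoid-like cells under 1000 UMIs, 0 of 61 and 24 of 68 (35.3%, interval 24.1 to 47.8) had at least 5 of the genes. Of these 24 cells, 23 lay in cluster 20, and they had a median of 810.5 UMIs and of 9.5 of the genes. Among them 18 had a UMI of a Cd3 gene, 7 had one of Apoe or a C1q gene, and 0 were in the top 5% of doublet scores. Without all cells under 1000 UMIs the mitotic shares were 61 of 1351 (4.52%) and 68 of 900 (7.56%), a log2 ratio of -0.74. The 10 macrophage markers summed to 344 and 713 CPM in the T and innate lymphoid-like cells with at least 5 genes, and to 284 and 301 in those with 0 or 1. The receptor segment Trbv19, chosen after its values were seen, was detected in 3.91% and 27.3% of the cells with at least 5 genes and in 4.43% and 20.5% of those with 0 or 1, so its share differed between the libraries in both kinds of cell. The parts of depth, of macrophage RNA and of this receptor segment in the result were not tested.

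**Figure D5:**
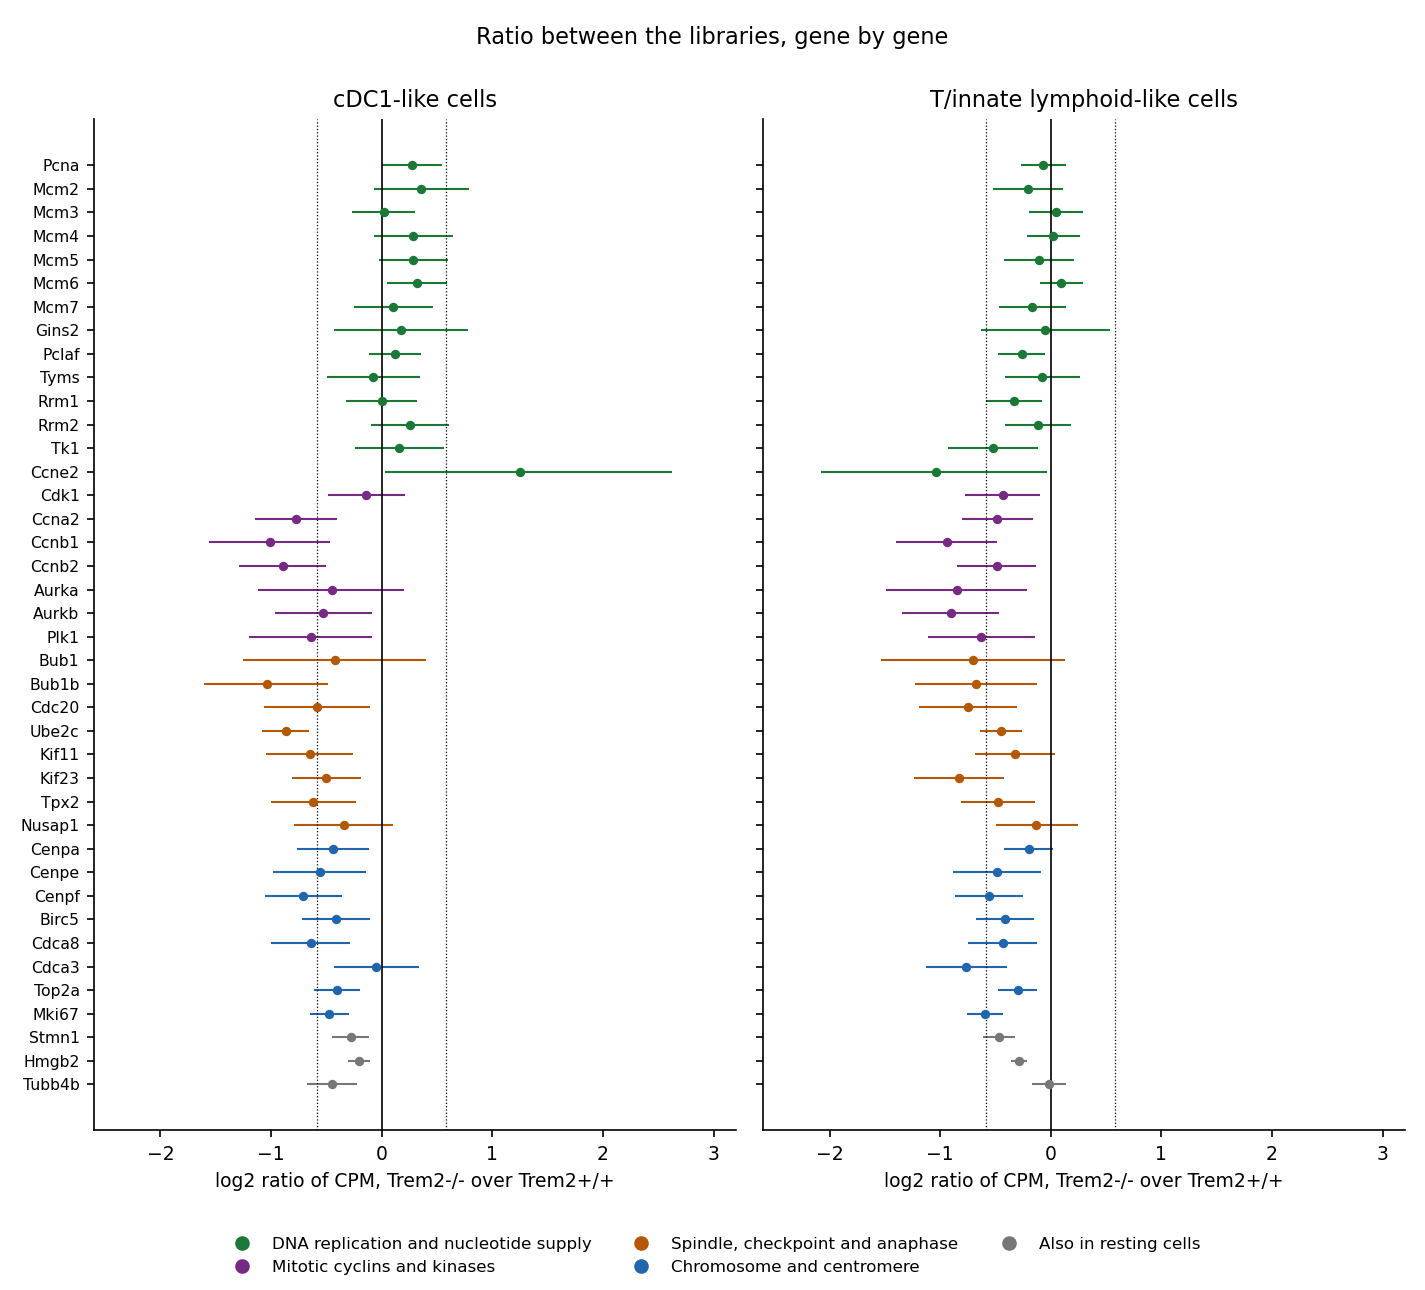
Log2 ratio of summed CPM, Trem2-/- over Trem2+/+ (x axis), of each of the 40 genes in cDC1-like and T and innate lymphoid-like cells, coloured by role, with exact conditional 95% intervals for counting error and dotted lines at 1.5-fold. The mitotic genes lie left of 0 in both classes. The replication genes lie mostly right of 0 in cDC1-like cells. In T and innate lymphoid-like cells they lie near 0 except Ccne2 (-1.04), Tk1 (-0.52), Rrm1 (-0.33) and Pclaf (-0.26), to its left.

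In cDC1-like cells the summed levels of mitotic genes were also lower with Trem2-/- marrow, but this depended on the scaling. Replication genes summed to 881 and 775 CPM (log2 0.18), mitotic cyclins and kinases to 204 and 311 (-0.61), spindle genes to 323 and 519 (-0.69) and chromosome genes to 590 and 810 (-0.46). Of 36 measured genes, 0 were 1.5-fold higher (1.17% of all measured genes were) and 10 lower (1.43% were): Ccnb1, Ccnb2, Ccna2, Ube2c, Cdca8, Cenpf, Plk1, Bub1b, Kif11 and Tpx2. Ccnb2, cyclin B2, stood at 33.6 and 62.3 CPM (log2 -0.89), Ube2c, the ubiquitin carrier of the anaphase-promoting complex, at 110 and 202 (-0.87), and Bub1b, a spindle checkpoint kinase, at 16.2 and 33.3 (-1.04). Of 21 measured mitotic genes all were below 0 in summed levels, with a median of -0.58, and as a mean over cells 16 were below and 5 above, with a median of -0.24. The 11 of 12 replication genes above 0 in summed levels became 5 of 12. Unthinned, the share of cells with at least 3 mitotic genes did not go with the sums. It was 50 of 217 and 49 of 249, a log2 ratio of 0.23 (-0.28 to 0.73). The cDC1-like cells had medians of 12567 and 9539 UMIs. Thinned as above, the share was 22 of 210 (10.5%) and 28 of 239 (11.7%), slightly lower with Trem2-/- marrow. The part of depth in this share was not tested.

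In the other classes the genes past 1.5-fold were 5 or fewer. Of 18 measured in Kupffer-like cells, Mcm5 was higher, at 30.7 and 18.7 CPM, and Top2a, the topoisomerase that untangles chromosomes, at 27.7 and 46.7, and Ube2c, at 19.6 and 37.1, were lower (2.47% and 1.44% of all measured genes), and Ube2c flipped to higher as a mean over cells (log2 0.39). The Kupffer-like share of 15.6% and 10.7% was a log2 ratio of 0.55, and it flipped under 3 other definitions of the class or its cells. Without cluster 4 the ratio was 0.13 (-0.31 to 0.58). That cluster had a median of 713 UMIs and held 136 of 409 and 445 of 905 Kupffer-like cells. In Kupffer-like cells of at least 1000 UMIs, unthinned, the ratio was 0.25 (-0.18 to 0.67). The parts of depth and of this cluster were not tested. Of 31 in cDC2-like cells, Cdk1, Mcm2, Mcm5 and Aurkb were higher and Mki67, at 99.5 and 168 CPM, lower (3.56% and 3.05%). Of 18 in NK/ILC1-like cells, Mki67, at 103 and 60.6, and Tubb4b, at 127 and 75.5, were higher and Pclaf, at 16.4 and 39.5, and Ube2c lower (4.97% and 2.56%). Mki67 thus lay above 0 in NK/ILC1-like cells and below 0 in T and innate lymphoid-like cells, and the difference between the classes was not tested. Of 11 in endothelial-like cells, Top2a, at 33.3 and 15.5 CPM (log2 1.10, interval 0.50 to 1.75), was higher and none lower (1.3% and 1.36%). Endothelial cells keep the host's own alleles in both groups. Those with at least 3 mitotic genes were 23 of 968 and 5 of 679, a log2 ratio of 1.69 (0.30 to 3.08). Thinned to 1000 UMIs they were 8 of 772 and 3 of 505. In endothelial-like cells with at least 5 genes the 8 T cell markers summed to 182 and 202 CPM, against 41.8 and 57.7 in those with 0 or 1, and their part in the result was not tested. Of 11 in B-cell-like cells, none was higher and Stmn1, a tubulin regulator, at 21.1 and 33.1, lower (4.05% and 2.11%).

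Each of these differences compares 1 pooled library with another, so none has a replicate check, and mouse, library and genotype cannot be told apart. The classes were rebuilt from markers and their borders shift with the clustering, and the T and innate lymphoid-like class pools several lineages.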

How the data were processed

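Live CD45+ liver cells of 2 groups (1 library each, 4 mice pooled per library) were profiled with 10x Genomics 5' chemistry, per the labels' protocols. The authors' deposited matrices hold UMI counts, not normalized. Their headers name Cell Ranger 5.0.1 (per the file headers), and the build is mm10 (per the submitters' processing notes). The annotation release was not given in the sources used here. Depth was 25288032 and 27238586 UMIs. A barcode was kept with 200 genes or more and mitochondrial UMIs of 10% or less. Scrublet marked only 5 and 2 barcodes, which were dropped as well, so it had not worked. Counts were scaled to 10000 per cell and clustered with scanpy 1.11.5 (2000 variable genes, 30 components, 15 neighbours, Leiden resolution 1) without 374 cell cycle genes. Genes with symbols that start with Trem were left out of clustering too. Clusters were named from markers of 25 classes, with limits on naming set after the clusters had been seen. The members, gene lists and markers were chosen with earlier results of these data known.

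With 1 library per group there is no test. Intervals (95%, counting error only) are exact binomial for shares, exact Poisson for levels, exact conditional binomial where summed UMIs are divided, and large-sample where shares are. Genes that averaged 20 CPM or more in a class were counted at 1.5-fold beside the same share over all genes. All 40 members could be named, the other regulators came from fixed lists, and the 12 non-members highest in cycling cells were named by the smaller of their ratios, with at least 50 UMIs. The promoters shown were the Mcm5, Pcna, Ccnb2 and Plk1 windows. Of the 40 genes, 11 overlap another annotated gene (GENCODE release M21), so their counts may hold its reads.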

Additional observations from a re-analysis of the deposited data

How the results depend on the processing

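Results were recomputed, where an alternative applied and cell numbers allowed, with other cell filters, other limits on the number of genes (3 or 8, shares only), without Stmn1, Hmgb2 and Tubb4b, thinned, with other clusterings or classes, without the top doublet scores, with no level limit, or as a mean over cells. The share of T and innate lymphoid-like cells with at least 3 mitotic genes, and alternatives without cluster 20, cluster 4 or cells under 1000 UMIs, were added after seeing the data. No ratio of shares thinned or at 8 genes was computed for Ly6C-high monocyte-like and B-cell-like cells, nor one with stricter filters for the former. No paired analysis was possible because each group is 1 library. Values are log2 ratios of Trem2-/- over Trem2+/+. Of the recomputed shares and medians, 24 of 118 changed sign, and in 3 of these the original interval had excluded 0. Those 3 were the Kupffer-like share (0.55), with stricter cell filters (-0.44), with cell cycle genes kept in clustering (-0.10) and with classes from each cell's own markers (-0.33). The share over all kept cells (0.02) was 0.18 at 3 genes and -0.17 thinned. At 3 genes the neutrophil-like background also differed, 45 of 529 (8.51%) and 26 of 706 (3.68%), a log2 ratio of 1.21 (0.53 to 1.89). The endothelial-like share (0.13) was 1.07 at 8 genes. The cDC2-like share (0.33) was 0.05 without the top doublet scores. The Ly6C-high monocyte-like share (0.46) was -0.81 without the 3 genes of resting cells, -0.54 at Leiden resolution 2 and -0.35 with own markers. The T and innate lymphoid-like share (-0.18) was -0.87 at 8 genes, -0.57 without the 3 genes and -0.87 thinned, and its full range was -0.87 to 0.10. Its share with at least 3 mitotic genes (-1.07) stayed between -1.15 and -0.74. Medians over members moved with no level limit in B-cell-like (-0.65) and endothelial-like cells (0.38). They moved as a mean over cells in Kupffer-like (0.30) and T and innate lymphoid-like cells (-0.58), and without cluster 20 in the latter (-0.56). With own markers they were -0.70 in Kupffer-like, -0.23 in NK/ILC1-like and -0.41 in cDC2-like cells, and with stricter filters -0.25 in NK/ILC1-like cells.

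Of 99 single-gene levels recomputed as a mean over cells, 15 changed sign, and in 10 of these the original interval had excluded 0. Over all kept cells Top2a became -0.10, Pclaf -0.47, Nusap1 -0.21 and Hmgb2 -0.11. Stmn1 became 0.10 and Ube2c 0.39 in Kupffer-like cells, and in cDC1-like cells Mki67 became 0.13, Cdc20 0.0057, Cenpe 0.13 and Cenpf 0.25. The cause of these changes was not tested. Depth limits the shares: the median cell had 2932 and 2492 UMIs.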
